A study of Mus musculus with 24 samples.

Results

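The myoepithelial contractile genes are a set of 10 smooth muscle type genes, chosen by name with earlier results of these data known. Their Ensembl identifiers were looked up among the 63862 genes listed for the mouse lacrimal gland (LG) and lacrimal gland stem cell (LGSC) libraries. The genes are Acta2, Actg2, Myh11, Cnn1, Tagln, Mylk, Myl9, Lmod1, Oxtr and Cald1, and all 10 were listed. RNA of C57BL/6 mice was sequenced from adult LG, embryonic LG of stages E17.5 and E19.5 (E gives the embryonic day), and passage 2 LGSC spheres at culture days 5, 7, 10 and 14, with 3 libraries a group and 2 at day 5. The spheres were grown in Matrigel from dissociated LG cells of mice 6 to 8 weeks old, in serum-free medium with EGF, FGF10, Wnt3A and Y-27632. All sphere groups therefore shared that compound and the growth factors, none of which was added to the tissue groups. A further library of spheres at passage 10 and day 7 is given by its values only.

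Myoepithelial cells are epithelial cells that wrap the acini and ducts of exocrine glands and contract to help expel secretion. They carry basal keratins of epithelium beside a smooth muscle contractile apparatus. In that apparatus, the kinase Mylk phosphorylates the regulatory light chain Myl9, which lets the smooth muscle myosin Myh11 pull on filaments built of the actins Acta2 and Actg2. Cald1 and Cnn1 bind actin and restrain the motor, Tagln cross-links actin, Lmod1 starts new actin filaments, and the receptor Oxtr raises calcium in response to oxytocin. The same genes are used by the smooth muscle and pericytes of blood vessels, and Acta2 also by activated fibroblasts, so in whole tissue fewer cells of a type and less RNA per cell cannot be told apart.

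Smooth muscle genes are known to be switched on by serum response factor through the CArG box, and the MCAT element, CATTCC, is bound by TEAD factors. RefSeq promoters (build GRCm38.p6) were at hand for 7 of the 10 genes, and the 250 bases upstream of the start were searched. Those of Acta2, Myl9 and Cnn1 are shown because the values of these genes set the groups apart in different ways. Capitals mark a CArG box, a CArG-like match with 1 G or C in its A and T core, or CATTCC on either strand. The Acta2 sequence is chr19:34255374-34255623 on the minus strand, that of Myl9 chr2:156775214-156775463 on the plus strand and that of Cnn1 chr9:22099003-22099252 on the plus strand.
Acta2: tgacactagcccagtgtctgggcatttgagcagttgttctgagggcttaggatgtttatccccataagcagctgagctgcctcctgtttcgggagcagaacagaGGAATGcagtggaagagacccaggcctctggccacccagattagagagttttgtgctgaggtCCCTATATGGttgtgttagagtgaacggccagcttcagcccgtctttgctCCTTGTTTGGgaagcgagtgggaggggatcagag
Myl9: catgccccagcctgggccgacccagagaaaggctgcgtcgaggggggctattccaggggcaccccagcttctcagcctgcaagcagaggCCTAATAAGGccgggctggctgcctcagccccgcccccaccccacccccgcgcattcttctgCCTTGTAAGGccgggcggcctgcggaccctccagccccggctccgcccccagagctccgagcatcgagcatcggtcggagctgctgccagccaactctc
Cnn1: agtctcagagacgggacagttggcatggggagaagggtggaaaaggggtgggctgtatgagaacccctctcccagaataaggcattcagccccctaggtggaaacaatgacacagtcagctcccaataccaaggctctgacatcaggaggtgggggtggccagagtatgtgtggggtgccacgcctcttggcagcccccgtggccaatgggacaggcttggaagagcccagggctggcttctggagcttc
A CArG box stood upstream of 1 of the 7 genes, Myl9, from 161 to 152 bases before the start, and 1.47% of the 32851 promoters in the table held one. CArG-like matches stood upstream of Acta2 at 84 to 75 and at 34 to 25 bases before the start, and upstream of Myl9 at 99 to 90. A CArG box or a CArG-like match was held by 8.59% of all promoters. CATTCC was found upstream of Acta2, Mylk, Cald1 and Lmod1, against 12.6% of all promoters. No match lay in the Cnn1 or Oxtr window, which says only that these letters are not in those bases.

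The deposited values are FPKM, which divide a gene's fragments by its length and by a library total. Reads recovered from their steps numbered 6017211 to 9368065 a library. In adult LG replicates 1 and 2 the total behind the values was 2412372 and 3170438, against 6017211 and 7360946 recovered reads. In adult replicate 3 it was 7626760 against 8235935. Listed FPKM of adult replicates 1 and 2 are thus raised relative to the other libraries, and the FPKM given below are not corrected for this. In adult LG replicates 1 and 2, 53.3% and 51.5% of the reads came from only 10 genes, against 25.4% in adult replicate 3 and at most 7.9% elsewhere. Summed FPKM of 6 acinar genes was 1551000, 1432000 and 246700 in the 3 adult libraries, so replicate 3 stood apart. Some results that rest on it are given with and without it. Others, such as the changes at E19.5 and in day 7 spheres against adult LG, are given with it only. Many genes of the 20 tables were listed near 0 where the passage 10 table was not: of 2882 genes with at least 20 FPKM at passage 10, 1450 (50.3%) had a day 7 mean under 0.125 times that value. Gapdh, a glycolytic enzyme that every cell uses, was listed at 0 in all 20 libraries, as were Epcam, Krt8 and Srf. An exact 0 or a level near 0 in these tables may therefore be a failed estimate, and for such genes the text says what the tables list.

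**Figure D1:**
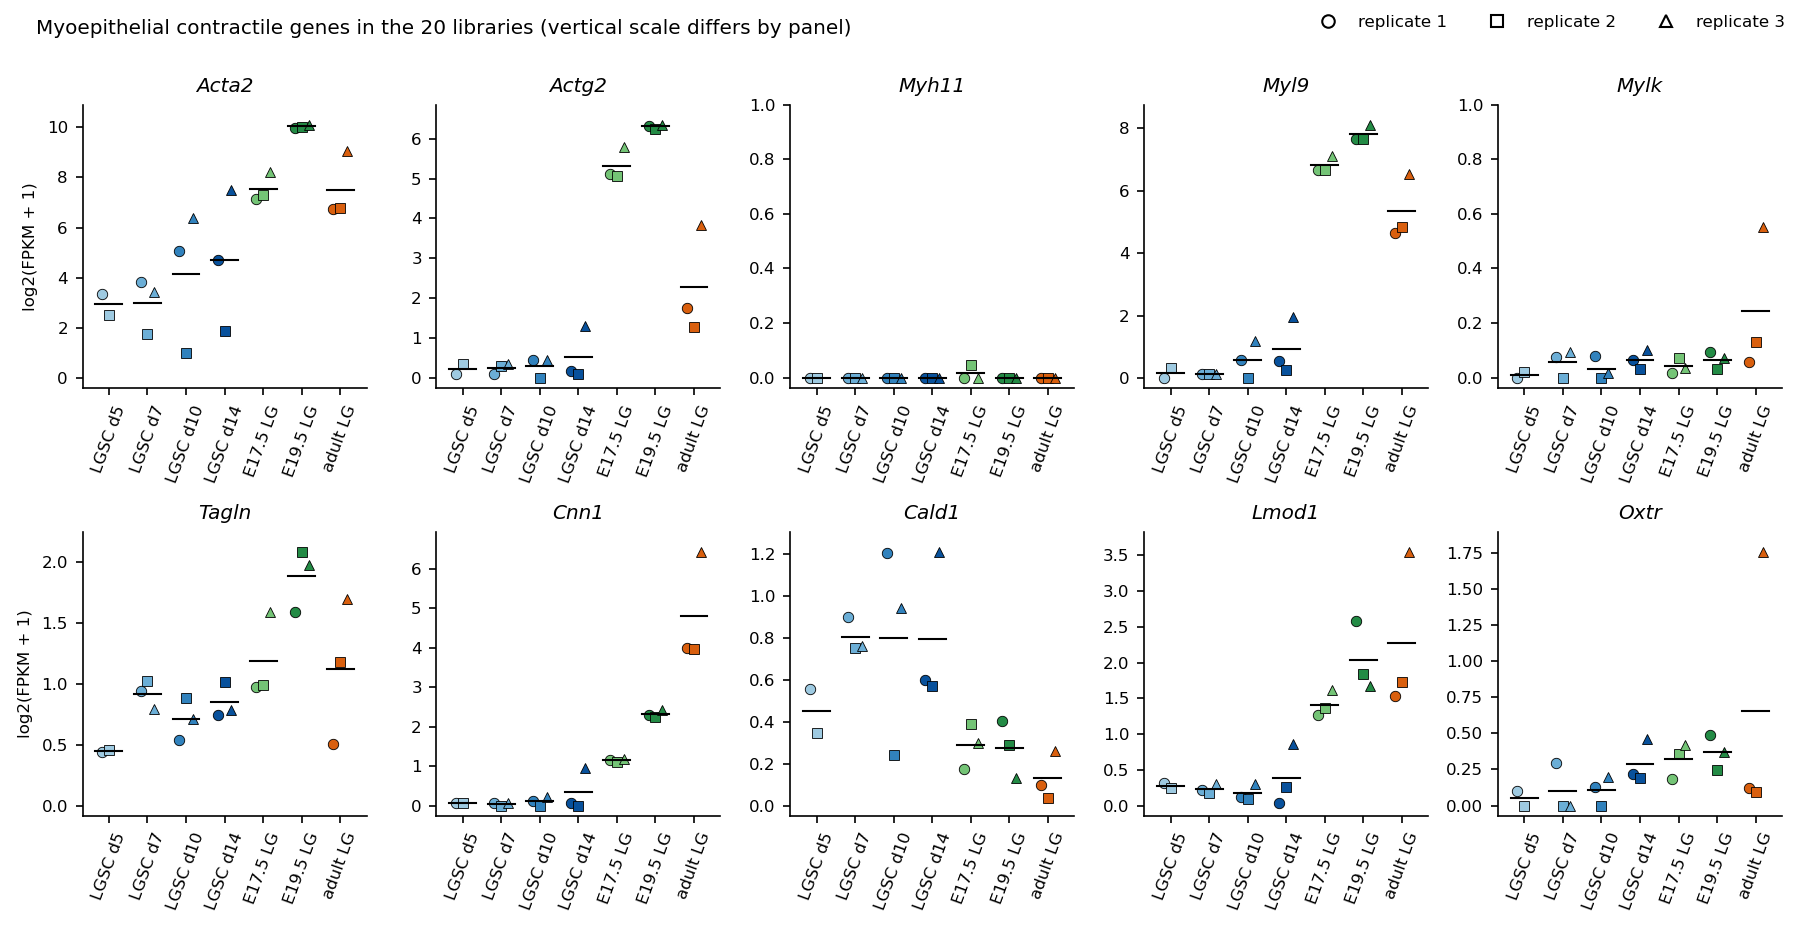
FPKM of the 10 genes in the 20 libraries, as log2(FPKM + 1) on the vertical axis, by group on the horizontal axis. Each point is a library with its shape giving the replicate number, and bars are group means on that scale. Acta2, Actg2 and Myl9 were highest at E19.5, Cnn1 was highest in adult LG, and Myh11 was listed at 0 in 19 of the 20 libraries.

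Acta2, smooth muscle alpha-actin and the usual marker of myoepithelium, had the highest mean FPKM of the 10 in every group. Its FPKM was 105.4, 109.6 and 523.9 in adult LG, 139.0, 156.4 and 296.1 at E17.5, and 1007, 1040 and 1093 at E19.5. The E19.5 libraries lay above all others, and those of adult LG and E17.5 overlapped. In spheres Acta2 was 9.31 and 4.72 at day 5, and 13.3, 2.37 and 9.91 at day 7. At day 10 it was 32.5, 1.02 and 82.8, and at day 14 it was 24.9, 2.71 and 179.8. Day 14 replicate 3 lay within the range of adult LG, and the other 10 sphere libraries lay below every tissue library in listed FPKM. By recovered reads this order did not hold for day 10 replicate 3, with 1275 Acta2 reads of 7663826. Adult replicates 1 and 2 had fewer, 453 of 6017211 and 619 of 7360946. In the passage 10 library Acta2 stood at 0.968 FPKM.

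Actg2, smooth muscle gamma-actin, had 2.40, 1.42 and 13.4 FPKM in adult LG, 33.5, 32.5 and 54.1 at E17.5, and 79.1, 74.9 and 80.1 at E19.5. Its 3 tissue groups did not overlap. In spheres it reached at most 1.47 FPKM, in day 14 replicate 3, and rested on 0 to 19 reads. Myl9, the light chain, had 24.3, 27.7 and 90.8 FPKM in adult LG, 100.8, 101.2 and 137.6 at E17.5, and 199.8, 200.1 and 273.7 at E19.5. These groups did not overlap either, and spheres again lay lower, at most 2.90 FPKM in day 14 replicate 3.

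Cnn1, calponin, ran the other way. It had 15.0, 14.6 and 84.7 FPKM in adult LG against 1.22, 1.14 and 1.28 at E17.5 and 3.89, 3.70 and 4.33 at E19.5. Every adult library was above every embryonic library, and the E19.5 libraries were above those of E17.5. Spheres held at most 0.924 FPKM of Cnn1, again in day 14 replicate 3. Lmod1, the leiomodin, had 1.89, 2.32 and 10.7 FPKM in adult LG, 1.40, 1.58 and 2.06 at E17.5, 5.01, 2.59 and 2.20 at E19.5, and at most 0.823 in spheres. Its tissue groups overlapped between adult LG and each embryonic stage.

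The other 5 genes were listed low. Tagln, or transgelin, had 0.417, 1.27 and 2.24 FPKM in adult LG, 0.970, 0.992 and 2.01 at E17.5, 2.01, 3.25 and 2.95 at E19.5, and 0.355 to 1.03 in spheres. In the GENCODE M21 annotation, 67.9% of the exon bases of Tagln lie under exons of Gm48529 or Pcsk7 on the other strand, and the library kit is not stated to keep the strand, so its reads cannot be told apart from theirs. Oxtr had 0.0865, 0.0658 and 2.38 FPKM in adult LG, where replicate 3 again stood apart, and at most 0.406 in any embryonic or sphere library. Mylk was listed at no more than 0.465 FPKM, in adult replicate 3, and 6.85% of its exon bases lie under other exons.

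Myh11, the motor itself, was listed at 0 in every library but E17.5 replicate 2, which had 0.0313 FPKM. Cald1, caldesmon, was listed at 0.0262 to 0.196 FPKM in adult LG, 0.0953 to 0.323 in the embryonic libraries and 0.183 to 1.31 in spheres, against 32.8 FPKM in the passage 10 library. No exon bases of Myh11 or Cald1 lie under another gene's exons in that annotation. Of the low genes, Mylk and Cald1 had day 7 means under 0.125 times their passage 10 value, as many genes did, whereas Myh11 and Tagln were low at passage 10 too, at 0.0254 and 0.254 FPKM. No order among these genes is read from such values. Acta2 and Actg2, whose proteins are near-identical, shared no exact stretch of 150 bases, the read length, with each other or with any other transcript in GENCODE M21.

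Embryonic and adult LG were compared first, to show how the contractile genes stood before birth and in the mature gland. At E17.5, Actg2 and Myl9 were higher than in adult LG and Cnn1 was lower, while Acta2 was not told apart. At E19.5, Acta2, Actg2 and Myl9 were all higher than in adult LG, and Cnn1 was again lower. The Cnn1 difference at E19.5 did not pass when values were scaled to recovered reads.

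All 9 tissue libraries entered a limma fit on log2(FPKM + 1), a scale that understates the change of low genes. Genes averaging 0.5 FPKM or more entered, 18578 in all and 6 of the 10 among them, and p-values were Benjamini-Hochberg adjusted over all genes tested. At E17.5, 3 of the 6 passed an adjusted p of 0.05, 2 higher and 1 lower, where 54% of all genes tested passed. The changes were 3.02 on the log2 scale for Actg2 (SE 0.58, adjusted p = 0.00228), 1.48 for Myl9 (SE 0.45, adjusted p = 0.0215) and −3.65 for Cnn1 (SE 0.57, adjusted p = 0.000783). Acta2 differed by 0.03 (95% interval −1.30 to 1.36, adjusted p = 0.974), Tagln by 0.06 (adjusted p = 0.886) and Lmod1 by −0.86 (adjusted p = 0.178). Without adult replicate 3 the Acta2 change at E17.5 was 0.79 with an adjusted p of 0.0439. Myl9 at E17.5 lost its call without adult replicate 1 (1.14, adjusted p = 0.0668), adult replicate 2 (1.23, adjusted p = 0.0741) or E17.5 replicate 3 (1.33, adjusted p = 0.0727), and in a fit of only those 2 groups (1.48, adjusted p = 0.0535).

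At E19.5, 4 of the 6 passed, 3 higher and 1 lower, where 54.2% of all genes tested passed. Acta2 changed by 2.51 (SE 0.58, adjusted p = 0.00644), Actg2 by 4.01 (SE 0.58, adjusted p = 0.000529), Myl9 by 2.46 (SE 0.45, adjusted p = 0.00187) and Cnn1 by −2.48 (SE 0.57, adjusted p = 0.00614). Tagln differed by 0.76 (adjusted p = 0.0696) and Lmod1 by −0.23 (adjusted p = 0.717). Both embryonic stages were set against the same adult libraries, so the 2 sets of changes are not independent.

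The adult contrasts also depend on how libraries are scaled. When values were scaled to each library's recovered reads, the median change of all genes moved from 0.0534 to 0.52 at E17.5 and from 0.0887 to 0.471 at E19.5, and the called genes went from 5405 up and 4634 down to 8184 up and 2312 down in the E17.5 contrast, and from 5637 up and 4440 down to 7753 up and 2260 down in the E19.5 contrast. Among the contractile genes, Cnn1 at E19.5 then differed by −1.75 with an adjusted p of 0.092, Tagln rose by 1.00 with an adjusted p of 0.0385, and the uncalled Lmod1 difference turned to 0.23. At E17.5 the same 3 genes, Actg2, Myl9 and Cnn1, passed under both scalings.

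**Figure D2:**
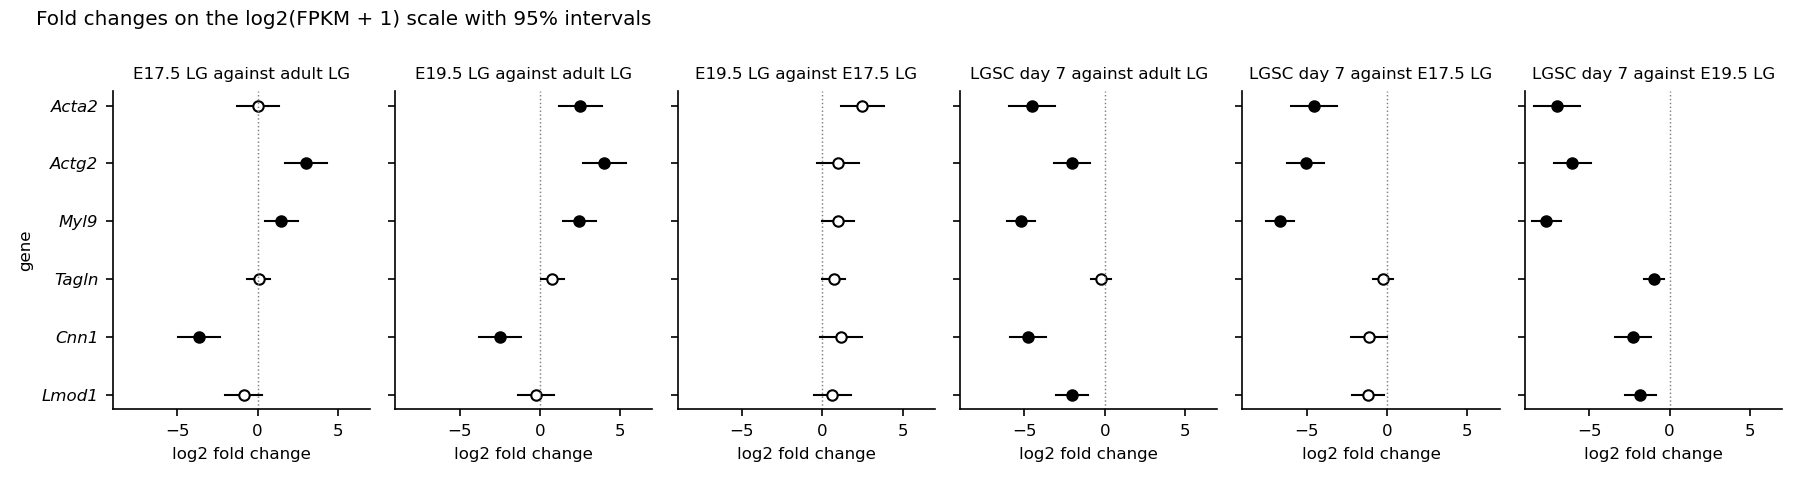
Log2 fold changes of the 6 tested genes (horizontal axis, on the log2(FPKM + 1) scale) in 6 comparisons, with 95% intervals as lines. Filled points have an adjusted p under 0.05 over all genes tested. Actg2 and Myl9 lie right of 0 and Cnn1 left of 0 in both embryonic comparisons with adult LG, and all points lie left of 0 for day 7 spheres.

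A ratio taken inside a library does not change with that library's scale, so the genes were also expressed as a percent of the Acta2 FPKM of the same library. This measure was chosen after the values had been seen. Cnn1 came to 14.2%, 13.4% and 16.2% of Acta2 in adult LG, so it kept its proportion in the adult library that had several times more of both. It came to 0.879%, 0.728% and 0.432% at E17.5 and to 0.386%, 0.356% and 0.396% at E19.5. Relative to Acta2, adult LG had 22.3 times the Cnn1 of E17.5 and 38.4 times that of E19.5, by geometric means.

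For Actg2 the share was lowest in adult LG. It came to 2.27%, 1.29% and 2.56% of Acta2 in adult LG, 24.1%, 20.8% and 18.3% at E17.5, and 7.85%, 7.21% and 7.33% at E19.5. The share of Actg2 was thus largest at E17.5, 10.7 times that of adult LG and 2.80 times that of E19.5, although its own level was higher at E19.5. Lmod1 was 1.79%, 2.11% and 2.04% of Acta2 in adult LG, 1.01%, 1.01% and 0.695% at E17.5, and 0.498%, 0.249% and 0.201% at E19.5.

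Myl9 was 72.5%, 64.7% and 46.5% of Acta2 at E17.5, against 19.8%, 19.3% and 25.0% at E19.5 and 23.0%, 25.3% and 17.3% in adult LG. Its adult and E19.5 shares overlapped. Tagln was 0.634% to 0.698% of Acta2 at E17.5, 0.200% to 0.312% at E19.5 and 0.396% to 1.16% in adult LG. Of the 15 comparisons of a ratio between 2 tissue groups, 13 did not overlap. All 15 divide by Acta2, so they are not independent, and the same count over all genes was not made. Each share was lower at E19.5 than at E17.5 by geometric means, and Acta2 itself had means of 1047 and 197.1 FPKM there. With 3 libraries a group, an exact permutation test (two-sided) cannot go below p = 0.1, which these 13 reached, with a Benjamini-Hochberg adjusted p of 0.115.

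**Figure D3:**
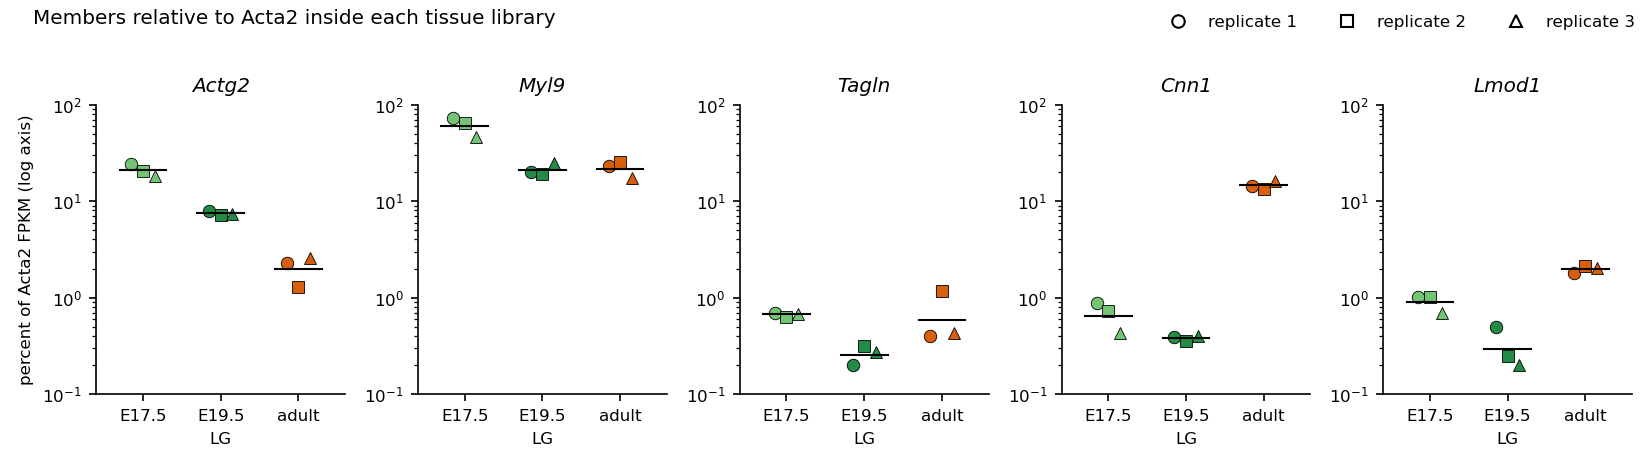
FPKM of 5 genes as a percent of the Acta2 FPKM in the same library (vertical axis, log scale) in E17.5, E19.5 and adult LG. Points are libraries, with shape giving the replicate number, and bars are geometric means. Cnn1 sits at 13.4% to 16.2% in adult LG and under 1% in both embryonic stages, while Actg2 is highest at E17.5.

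Between E17.5 and E19.5 the question was how the genes moved over the last days before birth. In the fit of all 9 tissue libraries none of the 6 passed, where 1.74% of all genes tested did. Acta2 differed by 2.48 on the log2 scale (SE 0.58, unadjusted p = 0.00241, adjusted p = 0.0804), and it was the only one of the 6 with an unadjusted p under 0.05. Actg2 differed by 0.99 (adjusted p = 0.489), Myl9 by 0.98 (0.348), Tagln by 0.70 (0.34), Cnn1 by 1.17 (0.388) and Lmod1 by 0.62 (0.646). None passed with limma-voom on recovered reads either.

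This result depended on adult replicate 3. Fitted with the E17.5 and E19.5 libraries alone, 4 of the 6 were higher at E19.5: Acta2 (adjusted p = 0.00531, SE 0.27), Actg2 (0.0253), Myl9 (0.02) and Cnn1 (0.00326, SE 0.10). The same 4 passed in the 3-group fit without adult replicate 3, Acta2 with an adjusted p of 0.00352 and Cnn1 with 0.00162. How many of all genes passed in these fits was not recorded, so the 4 cannot be set against a share of all genes. For Acta2, Actg2, Myl9 and Cnn1 every E19.5 library was above every E17.5 library. That order was not counted over all genes.

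Other genes of the contractile apparatus were taken from a list of 24, of which 18 were tested. This list and those below were chosen with earlier results of these data known. Their counts beside the share of all genes are therefore descriptions only. At E17.5, 7 were higher than in adult LG and 2 lower, where 29.1% of all genes tested were higher and 24.9% lower, and the median change was 0.33 against 0.0534 for all genes. The 9 called of 18 are thus near the share of all genes. Itga8, an integrin of contractile cells, rose by 2.80 (SE 0.25, adjusted p = 3.54e-05), the tropomyosin Tpm2 by 1.76 (SE 0.40, adjusted p = 0.00569) and the filament protein desmin, Des, by 1.46 (SE 0.25, adjusted p = 0.00123). The small heat shock protein Hspb6 fell by 1.84 (adjusted p = 0.000495) and the cross-linker Actn1 by 0.92 (adjusted p = 0.0155). At E19.5, 9 were higher and 3 lower, where 30.3% of all genes were higher and 23.9% lower. From E17.5 to E19.5 none of the 18 passed in the fit of all tissue libraries, where 1.74% of all genes did.

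The listed non-muscle relatives of the contractile genes were mostly higher in the embryo. As the list was chosen with earlier results known, this is not read as an excess over all genes. Of 10 tested, 7 were higher at E17.5 and 9 at E19.5, against 29.1% and 30.3% of all genes tested, and none was lower. Cnn2, the non-muscle calponin, rose by 2.95 at E17.5 (SE 0.35, adjusted p = 0.000156) while its relative Cnn1 fell, and the tropomyosin Tpm4 rose by 2.47 (adjusted p = 9.39e-06). Tagln2 rose by 2.04 at E19.5 (adjusted p = 0.000868).

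Among receptors that raise calcium and their partners, 6 of 14 tested were higher and 3 lower at E17.5, near the 54% of all genes that passed. The purine receptor P2rx1 rose by 2.45 (adjusted p = 1.87e-05) and the endothelin receptor Ednra by 2.27 (adjusted p = 0.00016). Chrm3, the muscarinic receptor through which nerves drive tear secretion, fell by 2.17 at E17.5 (adjusted p = 8.37e-05) and was higher again at E19.5 than at E17.5, by 1.24 (adjusted p = 0.0393). Of 6 regulators around serum response factor and TGF-beta that could be tested, Smad3 rose by 1.81 at E17.5 (adjusted p = 0.00137) and Foxf1 fell by 2.17 (adjusted p = 0.00155).

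Markers of other cells that use smooth muscle genes moved with these contrasts. Of 9 fibroblast markers tested, 8 were higher at E19.5 and 7 at E17.5, against 30.3% and 29.1% of all genes. The summed FPKM of the 10 listed was 184.6 to 369.0 in adult LG against 5261 to 6413 in the embryonic libraries, and Col1a1 was 40.3 to 57.1 in adult LG against 1844 to 2228. Of 10 mural (vessel wall) markers tested, 7 rose and 1 fell at E17.5 and 8 rose at E19.5, with a summed FPKM of 39.1 to 92.3 in adult LG and 266.8 to 339.5 in the embryo. Of the defining mural markers, Cspg4 rose from 0.317 to 2.21 FPKM in adult LG to 15.9 to 19.1 at E17.5, while Notch3 was listed at 0 in all libraries and Pdgfrb at no more than 0.0626. Endothelial markers summed to 72.5 to 213.6 FPKM in adult LG and to 141.5 to 231.4 in the embryo. Of 5 endothelial markers tested, 1 was higher and 1 lower at E17.5, and of 4 skeletal muscle markers tested only Tnnt3 passed, rising by 2.0 (SE 0.50, adjusted p = 0.00915). Of 4 tested striated relatives of the set, such as the embryonic myosin Myh3, 3 were higher at E17.5 and 1 at E19.5. Of 3 acinar genes tested all were lower at both stages, and of 3 epithelial genes 2 were lower at E17.5 and 1 at E19.5. Of all genes tested, 24.9% were lower at E17.5 and 23.9% at E19.5, and these shares change with the scaling, as given above. With so few genes tested, the counts of these short lists are not read as results about them. Skeletal muscle markers summed to at most 2.84 FPKM in adult LG, against 4.13 at E19.5 and 24.4 at E17.5, with Acta1 listed at 0. The part of these cells in the contractile gene values was not tested.

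Spheres were then set against the tissue they came from and against the embryonic gland. Day 7, the day of passage, was used, and the 3 contrasts share the same 3 sphere libraries. Acta2, Actg2, Myl9, Cnn1 and Lmod1 were lower at day 7 than in adult LG, and all 6 tested genes were lower than at E19.5. Acta2 was 8.52 ± 5.59 FPKM at day 7 (SD, n = 3), against 1047 ± 43.4 at E19.5, 197.1 ± 86.1 at E17.5 and 246.3 ± 240.4 in adult LG.

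The fit held the 12 day 7 and tissue libraries and covered 18645 genes, by their mean over those libraries. Actg2, Myl9, Cnn1 and Lmod1 had day 7 means of 0.201, 0.0997, 0.0268 and 0.173 FPKM. They thus passed the 0.5 FPKM filter only through tissue, which favours a call of lower, as for any gene so low in spheres. Cald1, at 0.745 FPKM at day 7 against 0.097 in adult LG, did not enter. The counts of lower genes in the 3 contrasts are therefore not read as results about the set. Against adult LG, 5 of the 6 tested genes were lower, where 48% of all genes tested passed. The changes were −4.51 for Acta2 (SE 0.65, adjusted p = 0.000214), −2.04 for Actg2 (SE 0.52, adjusted p = 0.00779), −5.20 for Myl9 (SE 0.40, adjusted p = 2.23e-06), −4.76 for Cnn1 (SE 0.51, adjusted p = 2.63e-05) and −2.04 for Lmod1 (SE 0.45, adjusted p = 0.00325). Tagln differed by −0.21 (adjusted p = 0.579), and by 0.16 when scaled to recovered reads. Under that scaling the median of all genes moved from −0.0463 to 0.405, the split of called genes from 3833 higher and 5108 lower to 7315 and 2828, and 4 of the 6 remained lower, Actg2 having an adjusted p of 0.058.

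Against E17.5, 3 of the 6 were lower, where 38.5% of all genes tested passed: Acta2 by −4.54 (adjusted p = 0.000248), Actg2 by −5.06 (2.14e-05) and Myl9 by −6.68 (3.48e-07). Cnn1 differed by −1.11 (adjusted p = 0.115) and Lmod1 by −1.18 (adjusted p = 0.0581), and both passed without adult replicate 3, with adjusted p-values of 8.28e-06 and 0.00144. Against E19.5, all 6 were lower, where 42.5% of all genes tested passed. The changes ran from −0.97 for Tagln (adjusted p = 0.0184) to −7.66 for Myl9 (adjusted p = 1.39e-07), with Acta2 at −7.02 (adjusted p = 1e-05). Tagln lost this call without day 7 replicate 3 (adjusted p = 0.06), E19.5 replicate 2 (0.0664) or E19.5 replicate 3 (0.0597).

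Depth limits how far these falls can be sized. The day 7 libraries held 3 reads of Myl9 in all and 2 of Cnn1. The mean FPKM of Myl9 in adult LG was 477 times that of day 7, with a 95% interval of 163 to 2310 from the counting error of the 3 reads alone. For Cnn1 the ratio was 1420, with an interval of 394 to 11800, against 45.3 for E17.5 over day 7 with an interval of 12.5 to 374. Both adult means lean on replicate 3, at 90.8 FPKM of Myl9 against 24.3 and 27.7, and 84.7 of Cnn1 against 15.0 and 14.6. The adult ratios were not computed without that library.

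The genes around them did not all go down. Of 18 other contractile apparatus genes tested, 6 were higher and 9 lower at day 7 than in adult LG, where 20.6% of all genes tested were higher and 27.4% lower. Pdlim3, a Z-line protein, fell by 4.53 (SE 0.41, adjusted p = 7.64e-06), Ppp1r14a, an inhibitor of myosin phosphatase, by 3.25 (adjusted p = 1.14e-06) and Des by 2.38 (adjusted p = 9.89e-06). The tropomyosin Tpm2 rose by 2.85 (SE 0.38, adjusted p = 0.000119), Cav1 by 1.78 (adjusted p = 0.000264) and Pdlim7 by 1.74 (adjusted p = 0.000688). Of the 10 non-muscle relatives tested, 8 were higher and none lower, against 20.6% higher among all genes, with Tagln2 at 3.44 (adjusted p = 3.97e-06), Cnn2 at 2.68 (adjusted p = 5.19e-05) and Tpm4 at 2.62 (adjusted p = 4.18e-07). Cnn2, Tagln2 and Tpm4 were thus higher in spheres than in adult LG while Cnn1, Acta2 and Myl9 were lower. This was not a split of muscle against non-muscle forms throughout. Of the muscle forms, Tpm2 rose, as did Tpm1 by 1.58 (adjusted p = 0.000848), and Tagln did not pass. Of the non-muscle forms, Cnn3 differed by 0.37 and Myh9 by −0.26 (adjusted p = 0.296 each).

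Myoepithelial and basal markers other than the contractile genes also split. Of 8 tested, 6 were higher and 1 lower at day 7 than in adult LG, against 20.6% and 27.4% of all genes. The basal keratins Krt17 and Krt14 rose by 5.75 (adjusted p = 4e-07) and 2.98 (adjusted p = 1.02e-05), whereas Mme, the surface peptidase CD10 of myoepithelium, fell by 3.85 (SE 0.22, adjusted p = 2.57e-07). Krt17 was 2519 to 4123 FPKM at day 7 against 37.7 to 111.3 in adult LG, and the epithelial cadherin Cdh1 was 444.8 to 719.1 against 121.4 to 146.2. Krt14 at 6.51 to 17.8 FPKM was itself listed far below the 7065 of the passage 10 library, and of the defining markers Cdh3 was listed at 0 throughout and Trp63 at no more than 0.750.

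Of 14 receptors and partners tested, 8 were lower and 2 higher in day 7 spheres than in adult LG, against 27.4% and 20.6% of all genes. The split of all genes turned under scaling to recovered reads, as given above. Chrm3 fell by 2.95 (adjusted p = 6.24e-06), Avpr1a by 1.58 (adjusted p = 0.000818) and Agtr1a by 1.27 (adjusted p = 0.00694), while Ednra rose by 2.27 (adjusted p = 0.00548). Of the serum response factor and TGF-beta regulators, 3 of 6 were higher and 1 lower, with Smad3 at 2.03 (adjusted p = 0.000494) and Foxf1 at −2.37 (adjusted p = 0.000258).

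Markers of the gland's stroma were listed near 0 in spheres. Fibroblast markers summed to 0.560 to 5.43 FPKM over the 11 sphere libraries and endothelial markers to at most 0.445, with Cdh5 at no more than 0.0351. Of 10 mural markers tested, 1 was higher and 4 lower at day 7 than in adult LG, against 20.6% and 27.4% of all genes. That count is near the 48% of all genes that passed. Des, Kcnj8, Abcc9 and Higd1b were lower, Des at most 0.0786 FPKM in spheres against 3.09 to 6.15 in adult LG, while Mcam rose by 3.63 (SE 0.27, adjusted p = 1.77e-06). Rgs4 differed by 1.88 (adjusted p = 0.065), Ndufa4l2 by 1.31 (adjusted p = 0.101) and Rgs5 by −0.88 (adjusted p = 0.179). The mural list summed to 284.2 to 510.7 FPKM in spheres, above adult LG. Mcam was the largest part of that sum, with sphere group means of 227.9 to 392.2 FPKM. Notch3 and Pdgfrb were listed at 0 in every sphere library, and Cspg4 had group means of 0.165 to 0.661 FPKM, so the sum is not a measure of mural cells. The part of vessel wall cells and fibroblasts in the contractile gene differences was not tested.

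Over the days of culture Acta2 split by replicate number. In libraries numbered 1 it was 9.31, 13.3, 32.5 and 24.9 FPKM at days 5, 7, 10 and 14. In those numbered 2 it was 4.72, 2.37, 1.02 and 2.71, and in those numbered 3 it was 9.91, 82.8 and 179.8 at days 7, 10 and 14. Day 14 stood at 1.87, 1.15 and 18.2 times day 7 for numbers 1, 2 and 3, and day 10 at 2.45, 0.431 and 8.36 times day 7. Number 2 thus stayed at 14 to 57 reads, and number 3 ended at 2661.

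No contractile gene passed in the fit over culture days, in which 15584 genes and 11 libraries entered. Of all genes tested 2.14% passed, and of the 4 contractile genes tested none did. The slope of Acta2 was 0.22 a day on the log2 scale (95% interval −0.13 to 0.56, unadjusted p = 0.196, adjusted p = 0.483). For Myl9 it was 0.10 (95% interval 0.0011 to 0.19, unadjusted p = 0.0478, adjusted p = 0.258), for Tagln 0.02 (adjusted p = 0.565) and for Cald1 0.02 (adjusted p = 0.678). Across days, libraries that shared a number moved together around their group means, with correlations of 0.26 to 0.719 over 15 pairs, so the number was also used as a block. With the replicate block 783 genes passed against 334 without it, none of them contractile, and the Acta2 slope was 0.16 (SE 0.09, adjusted p = 0.312). With limma-voom on recovered reads and the block, Acta2 had an adjusted p of 0.0582 and Myl9 of 0.0688.

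Between day 14 and day 7, 0% of 15744 genes passed, 1557 had an unadjusted p under 0.05, and none passed with limma-voom. Acta2 differed by 1.68 (95% interval −1.67 to 5.04, adjusted p = 0.695) and Myl9 by 0.79 (95% interval −0.26 to 1.84, adjusted p = 0.574). Both intervals hold no change and several-fold changes alike, and Tagln and Cald1 had adjusted p-values of 0.903 and 0.991. The same 4 genes were the only ones tested, as the others lay under 0.5 FPKM.

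**Figure D4:**
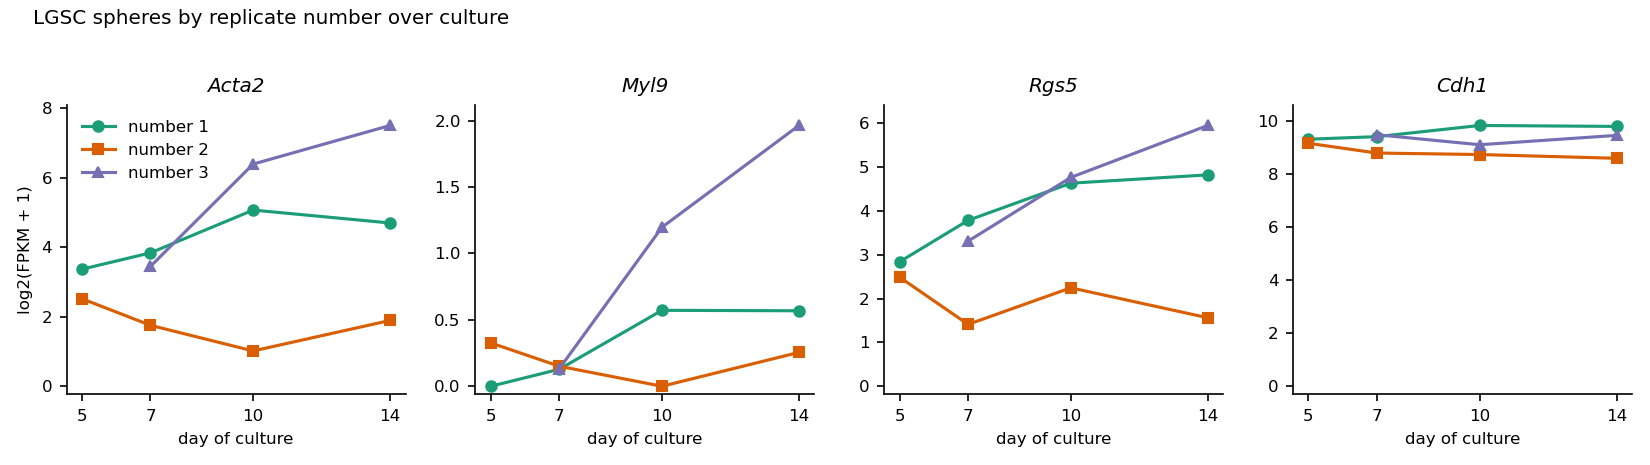
Levels of Acta2, Myl9, Rgs5 and Cdh1 as log2(FPKM + 1) (vertical axis) by day of culture (horizontal axis), with a line for each replicate number. Acta2 and Rgs5 are high at days 10 and 14 in numbers 1 and 3 and low in number 2. Cdh1 lies between 387.6 and 916.3 FPKM and is also lowest in number 2 at each day.

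Day 14 replicate 3 held the highest level of any sphere library for Acta2, Actg2, Myl9, Cnn1, Lmod1 and Oxtr. Its Actg2, Myl9, Cnn1 and Lmod1 rested on 19, 28, 21 and 27 reads. Mylk and Cald1 were near ties. Mylk was 0.0711 FPKM there and 0.0659 in day 7 replicate 3, on 6 reads each. Cald1 was 1.309 FPKM on 131 reads there and 1.305 on 139 reads in day 10 replicate 1. The fibroblast markers of day 14 replicate 3 also had the highest sum, 5.43 FPKM against at most 2.90 in the other sphere libraries. Its mural list summed to 510.7 against 284.2 to 492.1, and the library at 492.1, day 5 replicate 2, had Acta2 at 4.72 FPKM. Rgs5, a pericyte marker, was 6.16, 12.8, 23.8 and 27.3 FPKM in number 1, 4.61, 1.66, 3.74 and 1.95 in number 2, and 8.92, 26.2 and 60.8 in number 3. Other mural markers did not all go with it. By group means Ndufa4l2 and Rgs4 were higher at day 14 than at day 5, Mcam and Cspg4 were lower, and Notch3 and Pdgfrb were listed at 0. The myoepithelial Mme also split by number, at 0.788, 0.0292 and 2.14 FPKM at day 14 in numbers 1, 2 and 3. Pdlim3 stood at 1.48, 0.0873 and 3.32 FPKM there. Over the 11 sphere libraries log2(FPKM + 1) of Acta2 had a Pearson r of 0.945 with Rgs5, 0.635 with the epithelial Cdh1, −0.613 with the basal keratin Krt15 and −0.898 with Krt14, given as a description, since the libraries share numbers and days. Number 2 also stood apart in Krt15, at 407.3 and 719.0 FPKM at days 10 and 14 against 5.08 to 18.7 in numbers 1 and 3. Its epithelial list summed to 594.8 to 735.3 FPKM over the days, against 1426 to 2719 in numbers 1 and 3. The contractile gene levels of day 14 replicate 3 were not tested against these markers.

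Over all 20 libraries the levels of Acta2 had a Pearson r of 0.896 with Myl9, 0.85 with Actg2, 0.815 with Lmod1, 0.689 with Tagln and 0.652 with Cnn1 on the log2(FPKM + 1) scale, and of −0.297 with Cald1. Of the 5 genes outside the set whose levels were most like the mean standardised level of the 10, among 13690 genes, those given here are Rgs16 (r = 0.935), Rgs3 (0.93), Nxf7 (0.927) and Cmpk2 (0.922). Rgs16 and Rgs3 are regulators of G protein signalling. These correlations are descriptions over tissue and spheres together, and the libraries of a group share their source.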

How the data were processed

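The authors purified poly-A RNA, made libraries with the NEBNext Ultra kit and sequenced 150-bp paired-end reads. The submitters' processing notes name CASAVA 1.8, HISAT2 2.0.5, featureCounts 1.5.0-p3 and the build NCBIM37. The authors deposited 1 table of FPKM per library, and 21 of 24 listed samples had a table used here. Conditions and replicate numbers came from the labels. Symbols were taken from GENCODE M21 and found for 52403 of 52636 Ensembl identifiers. Reads were recovered by dividing FPKM by a gene's step, found for 35183 genes by requiring whole numbers within 0.01. For 24762 others the M21 length was used. Over both sets, 99.8% to 100% of values up to 1000 reads were whole, which for genes with a step was fixed in advance. Of genes with a step and an M21 length, 94.0% matched that length within 1%. Acta2 (1781 against 2196 bases) and Mylk (10159 against 11263) did not match.

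Tests used limma 3.58.1 (R 4.3.3) on log2(FPKM + 1), trend on, for genes averaging 0.5 FPKM or more, with Benjamini-Hochberg adjustment over all genes tested. The fits were tested on simulated data. The labels do not say whether replicates are separate animals or cultures, so p-values measure the spread between these samples. Alternatives were a pseudocount of 0.1, other filters, scaling to recovered reads, limma-voom, the replicate block, other sets of libraries, log2 of the day and each library left out. The paper tested counts with DESeq2, which was not run here; limma-voom was the count test on recovered reads. Replicate numbers paired the sphere libraries (lowest correlation 0.26) but not the tissue libraries (−0.0775 to 0.0663). The passage 10 table was made against another gene list and entered no test. Ratios and figures used Python 3.11.15.

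The 10 genes and all gene lists were chosen with earlier results of these data known. All 10 were named, with up to 3 rises and 3 falls of each list in the comparisons described, the defining cell type markers, and the 5 genes most like the set, except that 1 of those 5 and 1 gene list are not reported here.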

Additional observations from a re-analysis of the deposited data

Results flagged for a closer look

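In the passage 10 library, which entered no test, 2 of the 10 genes had values above all 20 passage 2 and tissue libraries. Cald1 stood at 32.8 FPKM against at most 1.31, and Mylk at 0.791 FPKM against at most 0.465. Acta2 in that library was 0.968 FPKM and Myl9 0.0362, both below every tissue library. That table lists another set of genes, and with 1 library the difference was not tested.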

How the results depend on the processing

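The counts of contractile genes that passed stayed within 1.5 times the main count in 138 of 145 repeats over the 8 comparisons, and no called gene turned its direction. Between E19.5 and E17.5, 4 genes passed in place of 0 when only those 2 groups were fitted and when adult replicate 3 was left out, giving 0 to 4 over all libraries left out in turn. How many of all genes passed in those fits was not recorded. Between day 7 and E17.5, 5 passed in place of 3 with a pseudocount of 0.1, with limma-voom, with limma-voom and the replicate block (an alternative added after the data were seen), with only the 2 groups, and without adult replicate 3, giving 3 to 5 over libraries left out. Leaving out libraries gave 2 to 4 for E17.5 against adult LG, 4 to 5 for E19.5 against adult LG, 5 for day 7 against adult LG, 5 to 6 for day 7 against E19.5, and 0 for both culture comparisons. The replicate block alone moved no count of contractile genes by more than 1.5 times, but Tagln at E19.5 against adult LG passed with it (adjusted p = 0.0251), and between E19.5 and E17.5 it left 100 of all genes in place of 323, although numbers did not pair the tissue libraries. Scaling to recovered reads gave 178 there and limma-voom 57, and over culture days the block gave 783 in place of 334. The cause of these changes was not tested. Few reads in spheres limit the size given for Actg2, Myl9, Cnn1 and Lmod1 there.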
